A study of Rhipicephalus microplus with 12 samples.

Results

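Ovary was compared with salivary gland in adult female cattle ticks (Rhipicephalus microplus, Mozambique strain), dissected on day 20 of infestation of Holstein-Friesian cattle. The members are the 8 arrays titled as ovary or salivary gland, of 12 in the series, chosen by title. Their 2 arrays per biological replicate were averaged, giving n = 2 for ovary and n = 2 for salivary gland, and the difference was taken as ovary minus salivary gland over all 13459 probes. Every array carried tissue RNA in Cy5 and a common pool in Cy3, and the pool held ticks of days 4, 5, 7, 13 and 15 together with tissues of day 20. Values are log2 ratios. The dyes make tissue over pool the likely direction, so a negative value is likely a level below the pool. Were the ratios pool over tissue, higher in ovary would read higher in salivary gland, and below the pool would read above it, in every value below. The other 4 arrays were midgut of females of the same age and strain, and they entered only the estimate of spread and the description of another tissue. The labels do not give the number of ticks per replicate or the cattle each replicate fed on, so the p-values reflect only how these samples spread, which may be technical.

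In a feeding female tick the ovary builds up oocytes, which take up yolk protein from the haemolymph and are laid once the engorged female has dropped off. The salivary glands return water from the blood meal to the host and secrete cement, anticoagulants, protease inhibitors and proteins that bind host signalling molecules. The gland degenerates after the blood meal. Probe identifiers are contig numbers or sequence accessions. Apart from 4 that carry a gene tag, the files give no gene name with them, and 0 were in the RefSeq table of this species. Transcripts are therefore described by identifier, and the labelled tissues were not checked against marker genes. In whole tissues, fewer cells of a type and less RNA per cell cannot be told apart.

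All ovary arrays lay on slide 2 and all salivary gland arrays on slide 1, so slide and tissue cannot be told apart in any value below. Ovary arrays grouped across replicates: across probes, which are not independent replicates, the first array of replicate 1 and the repeat array of replicate 2 correlated at r = 0.931, and the repeat array of replicate 1 and the first array of replicate 2 at r = 0.942, against 0.813 and 0.812 between arrays of the same replicate. Each ovary average thus holds 1 array of either pair. Whether the numbers of the repeat arrays are crossed could not be settled, and if they are, the spread between the ovary replicates and the standard errors are understated. First arrays only gave 3806 calls and repeat arrays only 3408, on fewer arrays, against 5779 with averaged arrays. All 12 arrays unaveraged, with the replicate as a random block, gave 6613 calls. That fit uses the same replicate numbers, so it does not settle whether they are crossed. The first array of replicate 1 and the repeat array of replicate 2 had medians of -0.03, against 0.39 and 0.34 on the other ovary arrays and 0.08 to 0.14 on the salivary gland arrays. With the repeat array of midgut replicate 2, which has a like median of -0.05, they are the 3 arrays left out in the alternative called "without the 3 arrays". What they share was not tested.

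The tissues differed at many probes, by similar counts in both directions, and the few differences of at least 8-fold lay mostly in favour of salivary gland. At an adjusted p of 0.05 in limma, 5779 of 13459 probes (42.9%) were called: 2913 (21.6%) lay higher in ovary, 2866 (21.3%) in salivary gland. At the same adjusted p, the authors' deposited table calls 64.9% of the 10695 probes it covers. The fit used here, adjusted over all 13459 probes, calls 48.7% of those, or 5209. Run on those 10695 probes alone it calls 5716. The authors' values leave out some arrays at 3566 of them, so the calls differ in input too. Differences called higher in ovary reached at most 3.47 on the log2 scale, and those called higher in salivary gland ran to -6.81. At least 4-fold higher in ovary were 222 probes (1.65%), and 459 (3.41%) were as far apart in favour of salivary gland. At the next step, 7 probes (0.052%) were at least 8-fold higher in ovary and 116 (0.862%) in salivary gland. Beyond 16-fold there were 0 in favour of ovary and 37 in favour of salivary gland, and beyond 32-fold 0 and 10. The smallest difference that passed was 0.52 on the log2 scale in size, set beside a median standard error of 0.23.

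The counts rested in part on single replicates and arrays. Leaving out ovary replicate 2 gave 3234 calls, and leaving out salivary gland replicate 1 gave 3629. Probes higher in ovary numbered 1860 in the absence of ovary replicate 1, 1611 in that of ovary replicate 2 and 1718 in that of salivary gland replicate 1, and probes higher in salivary gland numbered 1623 without ovary replicate 2. Without the 3 arrays 7968 probes (59.2%) passed, 5287 (39.3%) higher in ovary and 2681 (19.9%) in salivary gland, and the order of the 4-fold counts turned round, with 652 in favour of ovary and 408 in favour of salivary gland. Quantile normalization turned it round too, with 354 and 317. The count of 7 at least 8-fold higher in ovary was 14 without the 3 arrays, 17 without ovary replicate 2, 4 without salivary gland replicate 1 and 27 without salivary gland replicate 2, and 48 and 32 with quantile and scale normalization. The 116 in favour of salivary gland ranged over 80 to 157 in the alternatives run, and so stayed above the ovary count, which was at most 48.

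**Figure D1:**
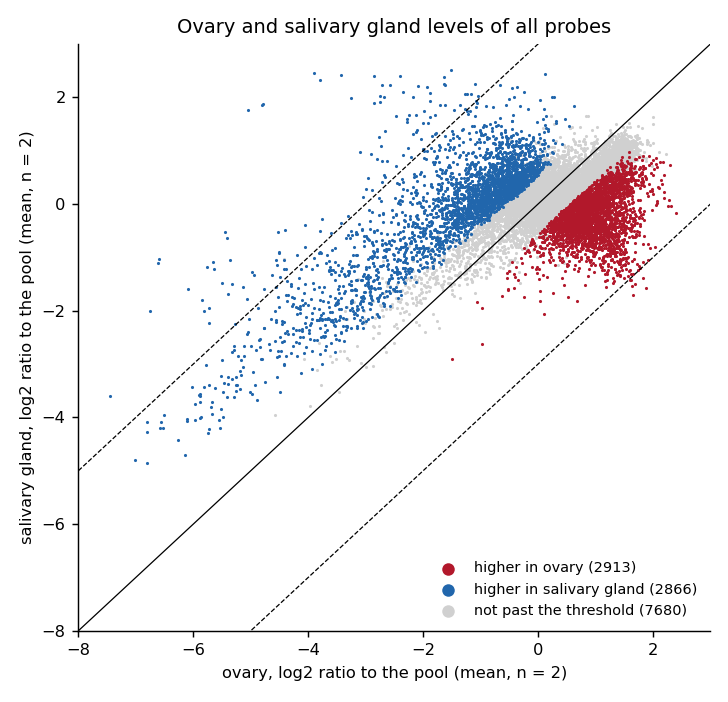
Mean log2 ratio to the pool of each probe in ovary (x axis) and salivary gland (y axis), n = 2 each, coloured by direction where the limma adjusted p passed 0.05. The solid line marks equal levels and the dashed lines 8-fold differences: 7 called probes lie beyond the ovary line and 116 beyond the salivary gland line.

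Ratios to the pool reached lower in ovary than in salivary gland. Over all probes the mean ratio spanned -7.46 to 2.40 in ovary and -4.85 to 2.50 in salivary gland, so that both had a like upper end and ovary the deeper lower end. The SD across probes was 1.22 in ovary and 0.71 in salivary gland. Of the 2913 probes higher in ovary, 2870 lay above the pool in ovary and 790 lay above it in salivary gland. Of the 2866 probes higher in salivary gland, 61 lay above the pool in ovary and 1662 in salivary gland. The remaining 1204 probes higher in salivary gland were below the pool in both tissues, a pattern found at only 43 of those higher in ovary. A dye bias cannot be removed from such ratios to the pool, since no array had the dyes swapped.

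The strongest ovary probes formed a narrow group and the strongest salivary gland probes a wide one. At the 222 probes at least 4-fold higher in ovary, the median ratio was 1.42 in ovary and -0.92 in salivary gland, with SDs across probes of 0.29 and 0.36. All 222 lay above the pool in ovary and 218 lay below it in salivary gland. At the 459 probes at least 4-fold higher in salivary gland, the median was -2.70 in ovary and 0.06 in salivary gland, with SDs across probes of 1.57 and 1.60. Of these, 239 lay below the pool in ovary and above it in salivary gland, and 219 lay below it in both. At the 116 probes at least 8-fold higher in salivary gland the medians were -2.82 in ovary and 1.01 in salivary gland. These sets were chosen by the difference itself, so their levels are a description.

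Single arrays of ovary and salivary gland did not overlap at 2515 of the 2913 ovary-high and 2811 of the 2866 salivary-high probes, against 6987 of all 13459 probes (51.9%). The calls were made on these same arrays, so these counts are a description. With the ovary arrays split as above, the 222 probes had a median difference of 2.19 on the 2 arrays that stand apart and 2.35 on the other 2, and the 459 probes had -2.62 and -2.42. For the whole table these medians were -0.31 and 0.33. The direction of the median over all probes thus depended on which ovary arrays were read. Both array sets gave the same sign at 2714 of the 2913 ovary-high probes (93.2%) and at 10219 of all probes (75.9%). The called probes were chosen for their difference on these arrays, which favours 1 sign, so nothing is read from the comparison.

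Midgut, which shares the slide of the salivary gland arrays, gave a further level that does not enter the difference. At the 222 probes at least 4-fold higher in ovary the midgut median was -1.88, lower than -0.92 in salivary gland, and midgut lay below both other tissues at 178 (80.2%). Over all probes midgut lay below both at 24.2%. At the 116 probes at least 8-fold higher in salivary gland, midgut lay between the others at 105 (90.5%), against 40.2% of all probes, with a median of -1.93. These probes were chosen for a wide gap between ovary and salivary gland. Such a gap leaves more room for a value between them, so nothing is read from that share. At the same 116 probes midgut was nearer to ovary at 100 (86.2%), against 39.2% of all probes. A choice for high salivary gland values can also make ovary the nearer tissue, so nothing is read from this share either. Among the 2407 probes under 4-fold higher in salivary gland, midgut was nearer to ovary at 28.0%. Its median there was -0.06, close to the 0.15 of salivary gland, against -0.94 in ovary. Of all 2913 probes higher in ovary, midgut was nearer to salivary gland at 2159 (74.1%), against 60.8% of all probes. Of all 2866 higher in salivary gland it was nearer to ovary at 955 (33.3%), against 39.2% of all probes. These shares are descriptions with no test.

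**Figure D2:**
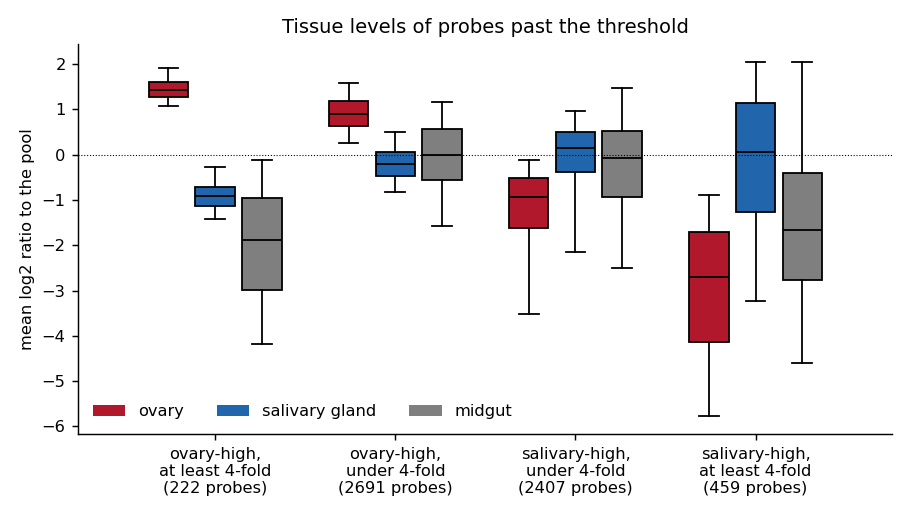
Mean log2 ratio to the pool (y axis) in ovary, salivary gland and midgut for probes called in the comparison, in 4 sets by direction and size. Boxes span the quartiles over probes, lines are medians and whiskers the 5th and 95th percentiles. Ovary-high probes of at least 4-fold are narrow in ovary and salivary gland (SDs 0.29 and 0.36), and salivary-high ones are wide.

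Contig8884 had the highest difference among probes with an identifier. Its log2 ratios were 1.98 and 2.00 on the arrays of ovary replicate 1 and 1.89 and 1.67 on those of replicate 2, against -2.17 and -2.23 in salivary gland replicate 1 and -0.93 and -1.00 in replicate 2. The ovary arrays were all high and close together, whereas the salivary gland replicates stood 1.23 apart. Ovary averaged 1.89 ± 0.15 and salivary gland -1.58 ± 0.87 (SD, n = 2 each), a difference of 3.47 (SE 0.38, limma adjusted p = 0.00119). Midgut was lower still, with -4.67 to -4.36 on its arrays.

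Contig2208 followed with 1.73, 1.87, 1.55 and 1.45 on the ovary arrays, against -1.78, -1.58, -1.51 and -1.91 on the salivary gland arrays. All 4 ovary arrays were above all 4 salivary gland arrays, and here the salivary gland replicates met (SD 0.02). The difference was 3.35 (SE 0.19, limma adjusted p = 0.000387). Its midgut arrays held -3.34 to -2.95, again below both other tissues.

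CV452616 had the lowest difference among probes with an identifier. It read -4.89, -4.74, -4.47 and -5.04 on the ovary arrays, against 1.10 and 1.15 in salivary gland replicate 1 and 2.66 and 2.61 in replicate 2. It was far below the pool on all ovary arrays and above it on all salivary gland arrays, with repeat arrays close and the salivary gland replicates 1.51 apart. The difference was -6.67 (SE 0.44, limma adjusted p = 0.000594), and midgut was likewise low at -3.54 to -3.21.

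Contig5338 read -4.92, -4.91, -4.58 and -4.81 on the ovary arrays, against 1.53, 1.56, 2.29 and 2.02 on the salivary gland arrays. The groups again did not overlap, and the difference was -6.66 (SE 0.27, limma adjusted p = 0.000355). Midgut lay between, at -1.28 to -0.81. The authors' deposited table gives -6.37 for this probe. That value equals the ovary mean of -4.81 minus 1.56, the repeat array of salivary gland replicate 1 alone. The authors' values for this probe thus rest on 9 of the 12 arrays, without the other salivary gland arrays. Those of the other 3 probes above rest on all 12. The difference of -6.66 and its SE used all salivary gland arrays, also those the authors left out. A single probe with no identifier had a still lower difference, -6.81 (SE 0.30, limma adjusted p = 0.000355), with an ovary average of -5.05 ± 0.48 and a salivary gland average of 1.76 ± 0.25 (SD, n = 2 each).

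Of 4 identifiers that carry a gene tag, 2 could be followed. One is tagged for TATA-binding protein, a basal factor of transcription initiation, and read 0.45, 0.61, 0.90 and 0.48 on the ovary arrays, against -0.41, -0.31, -0.18 and -0.20 on the salivary gland arrays. It was above the pool on every ovary array and below it on every salivary gland array. The difference was 0.88 (SE 0.18, limma adjusted p = 0.0091). Leaving out ovary replicate 2 (0.80) or asking for a 2-fold change ended the call.

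The probe tagged for ribosomal protein L4, a part of the large ribosomal subunit, lay the other way round. It read -0.16, -0.23, -0.14 and -0.29 on the ovary arrays, against 0.17, 0.07, 0.37 and 0.37 on the salivary gland arrays. The arrays did not overlap, but the difference of -0.45 (SE 0.19, limma adjusted p = 0.0969) did not pass, except with all 12 arrays and the replicate as a random block. The authors' deposited table has an adjusted p of 0.00147. The other 2 probes, tagged EF1a and His3A, are empty in the deposited comparison tables and could not be followed by name here.

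**Figure D3:**
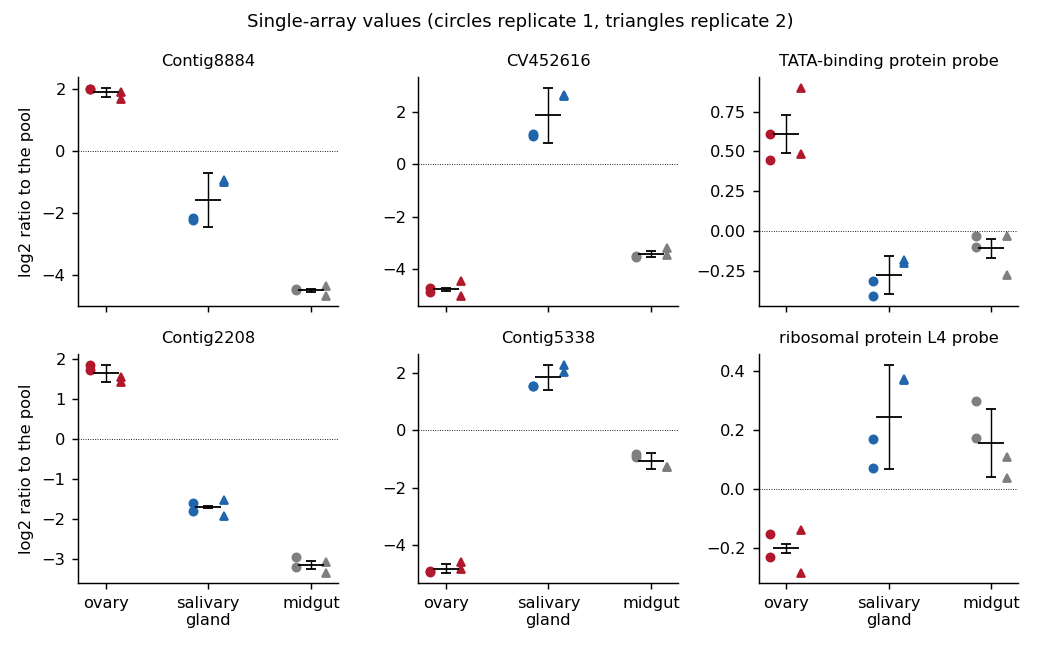
Log2 ratio to the pool (y axis, a scale of its own in each panel) on each array of ovary, salivary gland and midgut for 6 probes. Circles are replicate 1, triangles replicate 2, and bars the mean ± SD of the 2 replicate averages. Ovary and salivary gland arrays do not overlap in any panel, and the salivary gland replicates of CV452616 and Contig8884 stand apart.

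Grouping the probes by the letters that open their identifiers set 1 small series apart. Identifiers of the form GO with digits are sequence accessions and not Gene Ontology terms. They numbered 28, of which 15 could be paired with values and 13 could not be followed by name. Of these 15 probes, 14 were called, all in favour of salivary gland, where 25.9% of the 10695 probes with an identifier were called that way and 22.8% the other way. Their median difference was -3.52, with a range of -4.78 to -0.22, against a median of -0.06 over probes with an identifier. At least 8-fold higher in salivary gland were 10 of the 15, so that 8.62% of the 116 probes in that class came from a series with 0.111% of the probes. The series was singled out after its values had been seen, and its probes may share transcripts, so no test is given. The count was 14 with all arrays, 13 without the 3 arrays and 9 without moderation of the variances.

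The GO probes lay below the pool in both tissues, and further below it in ovary. Their median over probes was -4.81, -4.51, -4.92 and -5.42 on the ovary arrays, against -1.60, -1.53, -0.41 and -0.56 on the salivary gland arrays. This held for all 15, and all 15 had both ovary replicates below both salivary gland replicates, where the replicates did not overlap, in either direction, at 77.9% of all probes. Midgut medians were -3.81 to -3.47 per array, and midgut lay between the tissues at 11 of the 15. The lowest difference was -4.78 (SE 0.32, limma adjusted p = 0.000594), with -5.41 in ovary and -0.63 in salivary gland. The 11 strongest had ovary means of -6.09 to -4.42, and the other 4 had ovary means of -1.71 to -0.28 with differences of -1.13 to -0.22. The series thus held a strong and a weak part, and the gap between them was wide.

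The 4 series with the most probes lay within 3 percentage points of the whole in the share called. The smaller EW, U and AA series had more probes called higher in salivary gland than in ovary. So had the Contig and TC series and all probes with an identifier (25.9% higher in salivary gland, 22.8% in ovary), so this lean is not particular to the small series. Of Contig probes 49.4% were called (1721 higher in ovary, 2038 in salivary gland), of CV probes 46.4% (352 and 304), of CK probes 48.2% (264 and 245) and of TC probes 47.3% (74 and 108), where 48.7% of all probes with an identifier were. Of 171 EW probes 43.9% were called, 24 higher in ovary and 51 (29.8%) in salivary gland, with a median of -0.18. The small U and AA series had 1 and 6 called probes of 22, and 1 and 6 of 15, in favour of ovary and salivary gland. Of U probes 31.8% were called and of AA probes 46.7%, and the medians of their differences were -0.50 and -0.43, against -0.06 over all probes with an identifier.

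**Figure D4:**
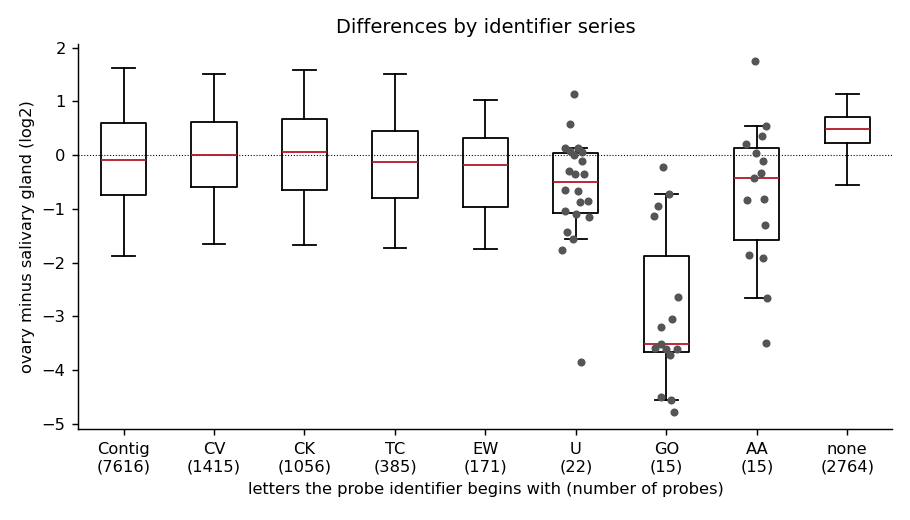
Ovary minus salivary gland on the log2 scale (y axis) by the letters that open the identifier (x axis, with the number of probes). Boxes span the quartiles, lines are medians, whiskers the 5th and 95th percentiles, and single probes are drawn for series of up to 22. The 15 GO probes lie at -4.78 to -0.22 with a median of -3.52.

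Some contigs carry an A and a B probe, and these did not always go the same way. The files list 76 such contigs, and 58 have values for both probes. No source used here says what A and B stand for. The signs were equal at 24 contigs and opposite at 34. Of all probes with an identifier 22.8% were called higher in ovary and 25.9% in salivary gland, so unrelated probes would often differ in sign too. Whether the counts given here differ from those of unrelated pairs was not tested. Of the 116 probes 47.4% were called, close to the 48.7% of all probes with an identifier. Both probes were called at 13 contigs, in the same direction at 3 and in opposite directions at 10. In 8 of these 10 the A probe was higher in ovary and the B probe in salivary gland. The count of 10 was 5 without ovary replicate 1, and 6 when either ovary replicate 2 or salivary gland replicate 1 was left out.

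The gap between A and B had a median of 1.00 on the log2 scale and reached 3.86. At that contig the A probe averaged 0.53 ± 0.05 in ovary, against -1.75 ± 0.45 in salivary gland (SD, n = 2 each), a difference of 2.28 (SE 0.25, limma adjusted p = 0.00126). Its B probe averaged -1.16 ± 0.39 in ovary, against 0.42 ± 0.25 in salivary gland (SD, n = 2 each), a difference of -1.58 (SE 0.25, limma adjusted p = 0.00328). Over the 58 contigs, 16 A probes and 7 B probes were called higher in ovary, and 11 and 21 higher in salivary gland. Where a contig had both probes, the direction could thus differ with the probe.

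**Figure D5:**
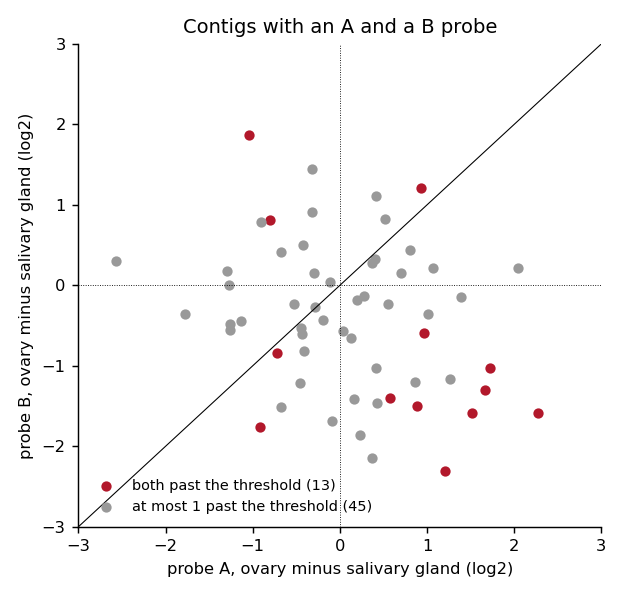
Ovary minus salivary gland (log2) of the A probe (x axis) and the B probe (y axis) of 58 contigs. The line marks equal differences, and the 13 contigs with both probes called are in red. Of these, 10 lie in the quadrants of opposite sign.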

How the data were processed

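Tissue RNA (Cy5) and pool RNA (Cy3) were hybridised on arrays of 2 colours, per the labels. Log2 ratios of 13459 probes on 12 arrays, with 0 missing values, were deposited as 1 value table. Per the submitters' processing notes the tool was limma. Which version, background correction or normalization the authors chose is not given in the sources used here. Their comparison tables give, per the file headers, log2 fold changes, fold changes (a ratio for midgut against ovary, signed for the others) and adjusted p-values. Lines of the value table were paired with identifiers where midgut minus ovary and midgut minus salivary gland both equalled differences of tissue means within 2e-08. This paired 10695 identifiers, 7129 over all 12 arrays and 3566 over part of them, with 0 ambiguous pairs, while 0 decoys paired. The remaining 2764 lines have no name here.

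Arrays of a replicate were averaged and tissue means fitted to 6 replicates (limma 3.58.1, R 4.3.3, functions lmFit and eBayes), leaving 3 residual degrees of freedom. Benjamini-Hochberg adjustment ran over all probes. The procedure was tested on simulated data. An exact permutation test of 2 against 2 cannot go below p = 0.333, so none was run. No filter on dim spots was applied, since intensities were not used here, and the number of arrays limits the precision. Named probes are the called probes with an identifier and non-overlapping replicates that had the 2 highest and 2 lowest differences, and those tagged with a gene. The members, lists, alternatives and named probes were chosen with earlier results of these data known. Lists of tissue markers matched no identifier and were not used. Tables and figures were made with Python 3.11.15, pandas 2.3.3, numpy 2.4.6 and matplotlib 3.10.9.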

Additional observations from a re-analysis of the deposited data

Results flagged for a closer look

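An outlier rule was run on 14 array measures (the median ratio and 6 named probes, in ovary and in salivary gland). It marked 1, and chance alone marks about 1 in 20. The rule sets the gap to the nearest array against the range of all arrays of the tissue, so a small gap can pass. It cannot mark arrays that split into pairs, as the ovary medians did. In salivary gland replicate 1, the first array's median log2 ratio was 0.140, against 0.0764 to 0.0798 on the other salivary gland arrays.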

How the results depend on the processing

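The 4 probes named by size and the tagged probes kept their direction in the 21 alternatives run, with differences of 2.85 to 4.09 for Contig8884, 3.20 to 3.94 for Contig2208, -7.42 to -5.91 for CV452616 and -6.96 to -6.08 for Contig5338. Many alternatives changed only the threshold, the estimate of spread, the blocking, or the other probes or midgut samples in the fit. These left the differences of the named probes as they were, so direction could not change there. Causes of the changes below were not tested, beyond fewer samples where replicates or arrays were left out. First arrays only gave 3806 calls (1766 higher in ovary), with 6 contigs whose A and B probes were called in opposite directions, and repeat arrays only gave 3408 (1656 higher in ovary, 1752 in salivary gland), also with 6. A 2-fold limit left 3566 (1683 and 1883; 6 contigs), an adjusted p of 0.01 in limma 3177 (1511 and 1666; 6), and no moderation 3231 (1644 and 1587; 6). Without the 3 arrays 5287 were higher in ovary, 14 of them at least 8-fold; quantile and scale normalization gave 48 and 32 at least 8-fold. These normalizations moved the median difference of all probes, 0.13 in the values reported, by -0.16 and -0.19, and leaving out the 3 arrays moved it by 0.20. The share of calls higher in ovary was 66.4% without the 3 arrays, against 50.4% with them. At least 4-fold higher in ovary and in salivary gland were 354 and 317 probes with quantile normalization, and 652 and 408 without the 3 arrays, against 222 and 459 in the values reported.

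The share of ovary-high probes with midgut nearer to salivary gland was 80.7% with first arrays, 87.0% with repeat arrays, 82.8% with the 2-fold limit and 85.0% at the stricter adjusted p. The share of salivary-high probes with midgut nearer to ovary was 38.2% with repeat arrays, 48.9%, 42.2% and 37.4% with quantile, scale and median centring, and 38.7% and 37.0% with the 2-fold limit and the stricter adjusted p. Leaving out 1 replicate, which lends the remaining sample the spread of the other tissues, gave 3234 to 6117 calls, 1611 to 3254 higher in ovary and 1623 to 2863 in salivary gland. It gave 4 to 27 probes at least 8-fold higher in ovary, 5 to 10 contigs in opposite directions, and shares of 62.3% to 84.4% and 32.1% to 39.7%. A replicate block gave 5681 calls. Deviations of same-numbered replicates correlated at 0.101 across probes, and with 1 difference per tissue this does not settle a pairing.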

Other observations

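The 2764 probes without an identifier, empty in the authors' tables, lay mostly above the pool, with a median of 1.13 in ovary, against 0.56 in salivary gland, and of 0.95 in midgut. Their median ovary minus salivary gland difference was 0.48, and 20.6% were called, against 42.9% of all probes. Higher in ovary were 476 (17.2%, against 21.6% of all probes) and in salivary gland 94 (3.4%, against 21.3%). Without the 3 arrays 2223 of the 2764 were called higher in ovary and 93 in salivary gland, where 39.3% and 19.9% of all probes were. Over all probes, 2913 were called higher in ovary with all arrays and 5287 without the 3 arrays.

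The salivary gland replicates differed at the probes that set ovary apart. At the 222 probes at least 4-fold higher in ovary, medians per array were -1.15 and -1.16 in salivary gland replicate 1 and -0.70 and -0.71 in replicate 2. Replicate 2 was higher at 199 of them (89.6%), against 45.9% of all probes. Ovary replicates had medians of 1.46 and 1.43 there. At the 15 GO probes, salivary gland replicate 2 was higher at 10.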
